A study of Mus musculus with 10 samples.

Results

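The genes described here are 3 receptors for fibroblast growth factors (Fgfr1, Fgfr2 and Fgfr3) and 7 genes that restrain or report the ERK cascade below them (Spry1, Spry2, Spry4, Spred1, Dusp6, Etv4 and Etv5). They were chosen by name, as 10 of the 50763 genes in the count table, and all 10 were found in it. RNA was sequenced from the lens epithelium of mice at 3 weeks of age, to learn how an excess of active TGF-β1 in the lens changes the transcriptome of the epithelium. Wild-type (WT) mice gave 3 libraries, the transgenic line OVE853 gave 3 and the independent transgenic line OVE918 gave 4. Both lines and the WT mice were on the FVB/N background, and the transgene of both lines was human TGF-β1, altered so as to be active once made, with an altered alpha-crystallin promoter that limits it to the lens. Each library was a pool, from up to 9 mice in WT and OVE853 and up to 7 in OVE918, so that the spread between libraries is one between pools. The whole epithelial explant was taken, in the transgenic mice together with its anterior subcapsular plaque, the fibrotic focus of the model.

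In FGF signalling a ligand brings 2 receptor tyrosine kinases together, adaptor proteins load RAS with GTP, and RAF, MEK and ERK kinases follow in turn. ERK switches on genes that feed back on the cascade. Sprouty and Spred proteins block it at or above RAF, the phosphatase DUSP6 removes phosphate from ERK itself in the cytoplasm, and the ETS transcription factors ETV4 and ETV5 carry part of the response to the nucleus. In the lens, FGF from the eye's fluids keeps epithelial cells dividing at low doses and drives them into fibre cells at high doses, and Sprouty and Spred proteins are known as antagonists of both ERK signalling and TGF-β responses in this epithelium. The transcripts of Spry1, Dusp6, Etv4 and Etv5 are commonly read as reporters of ERK activity, but an RNA level is not a measure of ERK phosphorylation.

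Total counts per library ranged from 24073311 to 31908525. The row of Tgfb1 had 50.6 to 61.7 CPM (counts scaled to the size of the library) in WT, 339 to 361 CPM in OVE853 and 715 to 881 CPM in OVE918, so that every library matched its label, although reads of the human transgene and of the mouse gene share this row. All 6 markers listed for lens epithelium, Foxe3 and Pax6 among them, had over 1 CPM in every library, but they did not move alike. Gja1 had 512 to 572 CPM in WT, 98.0 to 127 CPM in OVE853 and 55.6 to 79.9 CPM in OVE918, and Cdh1 had 258 to 395, 171 to 227 and 192 to 277 CPM. WT replicate 3 stood apart, because the summed level of 9 retinal neuron markers was 828 CPM there against 90.7 and 112 CPM in the other WT libraries, 27.9 to 74.1 CPM in OVE853 and 29.5 to 148 CPM in OVE918. All 9 of these markers passed 1 CPM in some library and 6 in every library. The sum of 6 Müller glia markers was 4127 CPM in WT replicate 3, 1624 and 1810 CPM in the other WT libraries and 434 to 1056 CPM in the transgenic ones. Most of this sum was Apoe, with 1342, 1152 and 2559 CPM in WT and 305 to 803 CPM in the transgenic libraries. Rlbp1 had 29.9, 35.0 and 210 CPM in WT and 6.98 to 25.7 CPM in the transgenic libraries. Some other marker sums separated WT from all transgenic libraries, and that of macrophages separated WT from OVE853 but not from OVE918. Those of the nonpigmented ciliary epithelium summed to 161 to 241 CPM in WT, 42.5 to 59.8 CPM in OVE853 and 14.8 to 26 CPM in OVE918, those of the cornea to 237 to 1619 CPM in WT and 26.6 to 93.3 CPM in the transgenic libraries, and those of macrophages to 13.5 to 32.6, 37.1 to 53.8 and 23.8 to 61.6 CPM. The cornea sum was nearly all Aldh3a1, with 236 to 1611 CPM in WT and 26.3 to 92.4 CPM in the transgenic libraries. Of the 6 cornea markers, 1 passed 1 CPM in every library. The part of these cell types in the comparisons with WT was not tested. Values without WT replicate 3 are given beside some of the results that rest on it. For pathway genes other than Lrig1, Ier3, Il17rd, Fgf1, Fgf13 and Fgf21, fits without this library were not examined. The labels name no batch.

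Levels are CPM scaled by edgeR's TMM factors, and a mean is followed by the SD among the libraries of its group. Differences are log2 fold changes with standard errors from edgeR's quasi-likelihood test on 11094 genes, and the FDR is its Benjamini-Hochberg adjusted p over all of them. A gene is said to have risen or fallen where the FDR was at most 0.05, and to be a differentially expressed gene (DEG) where it also changed at least 2-fold. Spry4 had fewer than 2 FPKM (CPM per kilobase of exon) in every library and was not among these genes, so that its estimates come from a wider fit of 18058 genes. Both lines are compared with the same 3 WT libraries, and the comparisons are therefore not independent of each other.

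Spry1 was the DEG of the set in both lines, with about a tripling in OVE853 and nearly a quadrupling in OVE918. Dusp6 also rose in both lines, by about as much as the DEG limit in OVE853 and by less in OVE918. Fgfr1, Spred1 and Etv5 rose in OVE853, and Fgfr2 fell slightly in OVE918. Spry2, Spry4, Fgfr3 and Etv4 did not pass the test in either line. In a whole tissue, a larger number of cells of a type and more RNA per cell cannot be told apart.

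In OVE853, 1 of the 9 members tested was a DEG, against 4.43% of all genes tested. By FDR alone 5 members rose and 0 fell, where 8.1% of all genes rose and 7.69% fell. The median log2 fold change of the 9 was 0.52, beside -0.01 over all genes. In OVE918, 1 of 9 was a DEG, against 5.6% of all genes, while by FDR alone 2 rose and 1 fell, where 8% of all genes rose and 11% fell. The median of the 9 was 0.23 in this line, beside 0.01 over all genes. Between the lines, 0 of 9 members were DEGs, against 0.487% of all genes, and 1 passed the FDR alone, against 1.32%. At an unadjusted p under 0.05, 2 of the 9 differed between the lines by edgeR. The share of all genes at that limit was not counted, so that nothing is drawn from this number. For single genes, the plot of levels by library shows the values behind these counts.

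**Figure D1:**
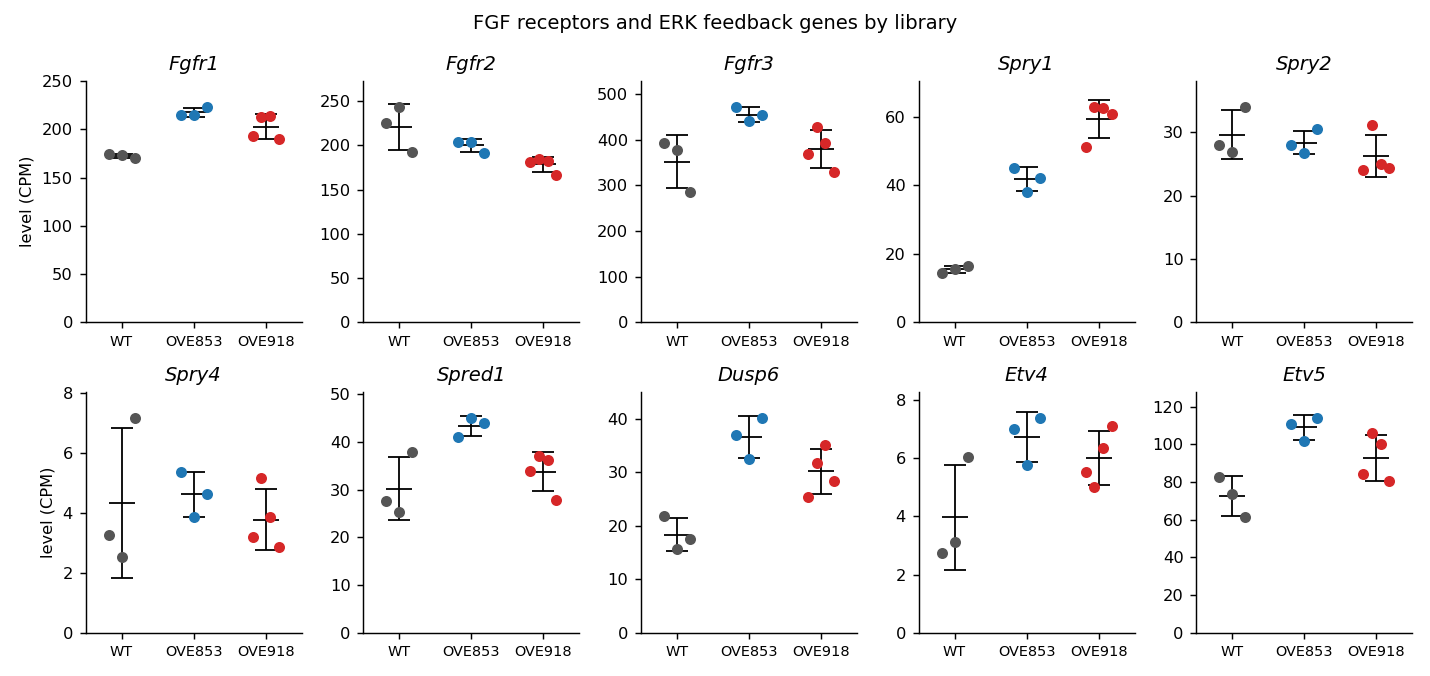
Level of each of the 10 genes in CPM (vertical axis, from 0) in the WT, OVE853 and OVE918 libraries. Each point is 1 library, and the bars are the mean and SD of the group. Spry1 rises from 14.3 to 16.4 CPM in WT to 51.1 to 62.9 CPM in OVE918 with no overlap of groups, whereas the Spry2 and Spry4 groups overlap.

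Set side by side per exon length, the receptors were the most abundant transcripts of the set. In WT, Fgfr3 had 80.0 ± 13.3 FPKM (SD, n = 3), Fgfr2 34.6 ± 4.11 FPKM and Fgfr1 23.2 ± 0.255 FPKM, and no WT library of one overlapped the next in this order. Etv5 followed with 18.2 ± 2.67 FPKM and Spry2 with 9.15 ± 1.19 FPKM, again without overlap. Dusp6 with 6.46 ± 1.09 FPKM, Spry1 with 5.72 ± 0.392 FPKM and Spred1 with 4.26 ± 0.942 FPKM came next and overlapped in turn, and Spred1 lay clear of Etv4. Etv4 with 1.65 ± 0.752 FPKM and Spry4 with 0.911 ± 0.526 FPKM were lowest and overlapped each other. Spry1 moved from place 7 of 10 in WT to place 5 in both lines, with 15.5 ± 1.33 FPKM in OVE853 (SD, n = 3) and 22.0 ± 2.07 FPKM in OVE918 (SD, n = 4), where it overlapped Etv5 with 23.2 ± 3.08 FPKM. The order from Fgfr3 through Fgfr2 and Fgfr1 to Etv5 was the same in all 3 groups, although in OVE918 Fgfr1 overlapped both Fgfr2 and Etv5.

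Fgfr1, on chromosome 8 of GRCm39 from 26003670 to 26066824, encodes a receptor that binds a broad range of FGFs. Its level was 174, 173 and 170 CPM in the WT libraries, 215, 215 and 223 CPM in OVE853 and 193, 213, 214 and 190 CPM in OVE918. All 7 transgenic libraries exceeded the WT libraries, which lay close together. Against WT the log2 fold change came to 0.34 in OVE853 (SE 0.08, FDR = 0.0233) and 0.23 in OVE918 (SE 0.08, FDR = 0.0650). The OVE853 call had an FDR between 0.0502 and 0.101 when WT replicate 2, WT replicate 3 or any 1 of the 3 OVE853 libraries was left out, at a log2 fold change of 0.31 to 0.35, and it was also lost with library totals (FDR = 0.0525) or no filter (FDR = 0.0789). In OVE918 it passed without OVE918 replicate 4 (log2 fold change 0.26, FDR = 0.0307), with upper-quartile factors (FDR = 0.0342) and with DESeq2 (FDR = 0.00505).

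Fgfr2, on chromosome 7 with an annotated span from 129763471 to 132725079, encodes the receptor whose epithelial splice form binds FGF7 and FGF10, but counts per gene do not separate the epithelial and mesenchymal splice forms of any receptor. Its level was 226, 244 and 192 CPM in WT, 204, 204 and 192 CPM in OVE853 and 181, 185, 182 and 166 CPM in OVE918. Every OVE918 library lay below every WT and every OVE853 library, while the OVE853 and WT libraries overlapped. Fgfr2 fell by 0.30 on the log2 scale in OVE918 (SE 0.09, FDR = 0.0462). Of 10 fits that each left out 1 library, the one without WT replicate 3 kept this call (log2 fold change -0.39, FDR = 0.00996), and the other 9 gave FDRs of 0.0632 to 0.178. It was also lost with upper-quartile factors (FDR = 0.0861), the fit of 18058 genes (FDR = 0.0743), no filter (FDR = 0.152) and only the groups compared (FDR = 0.118). In OVE853 the log2 fold change was -0.14 (SE 0.10, FDR = 0.346).

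Fgfr3, on chromosome 5 from 33879018 to 33894412, had 392, 379 and 285 CPM in WT, 472, 440 and 453 CPM in OVE853 and 370, 428, 393 and 329 CPM in OVE918. The OVE853 libraries lay above all others, and the OVE918 libraries overlapped WT. The log2 fold change was 0.37 in OVE853 (SE 0.14, FDR = 0.0880) and 0.11 in OVE918 (SE 0.13, FDR = 0.593). WT replicate 3 had the lowest of the 10 values, and without it the OVE918 value turned to -0.0215 (FDR = 0.935). Fgfr4 was barely detected, with 0.313 to 1.40 CPM.

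As shares of the summed FPKM of the receptors, with Fgfr4 included, Fgfr3 held 57.7% ± 2.77 in WT (SD, n = 3), 62.9% ± 0.831 in OVE853 (SD, n = 3) and 60.7% ± 1.5 in OVE918 (SD, n = 4). Fgfr2 held 25.1% ± 1.04 in WT, 19.1% ± 0.725 in OVE853 and 19.8% ± 0.927 in OVE918. The Fgfr2 share was 23.9% to 25.9% in the WT libraries and 18.4% to 20.6% in all 7 transgenic ones, so that it did not overlap, WT replicate 3 included. This sum was 148, 148 and 118 FPKM in WT, 169, 161 and 164 FPKM in OVE853 and 127 to 155 FPKM in OVE918. A share also depends on the other receptors, and in OVE853 the Fgfr2 level itself overlapped WT (log2 fold change -0.14, FDR = 0.346). These shares are given as a description, with no test.

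**Figure D2:**
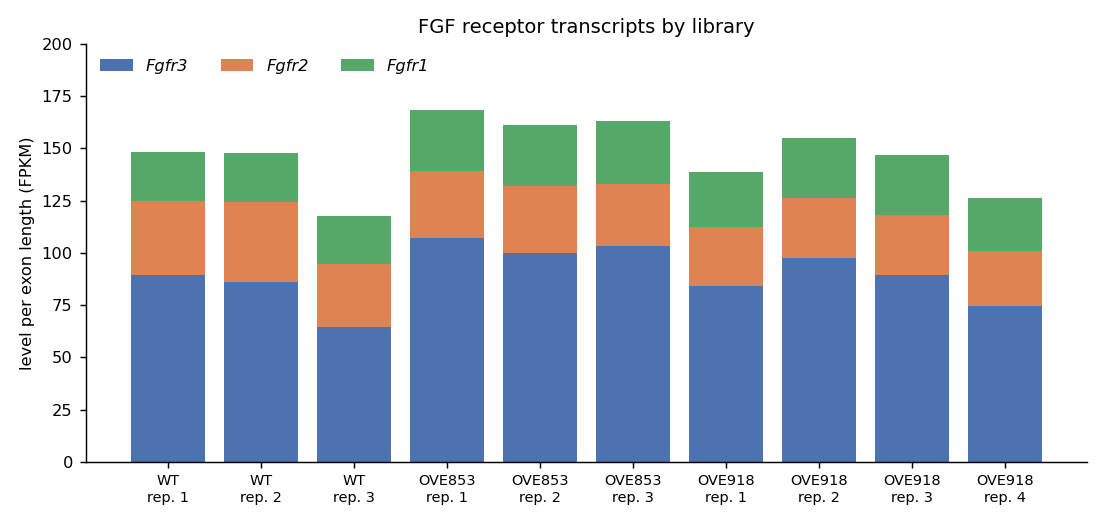
Level per exon length (FPKM, vertical axis, from 0) of Fgfr3, Fgfr2 and Fgfr1, stacked, in each of the 10 libraries. Fgfr3 makes up the largest part of every bar, the sum is highest in the 3 OVE853 libraries (161 to 168 FPKM), and the lowest sum, 118 FPKM, is that of WT replicate 3.

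Spry1, on chromosome 3 from 37693897 to 37698755 on the forward strand, encodes Sprouty1, an inhibitor induced by the receptors it restrains. The WT libraries had 14.3, 15.6 and 16.4 CPM, the OVE853 libraries 45.2, 38.0 and 42.2 CPM and the OVE918 libraries 51.1, 62.9, 62.6 and 60.8 CPM. The 3 groups did not overlap, in the order WT, OVE853, OVE918. Spry1 rose by a log2 fold change of 1.44 in OVE853 (SE 0.11, 95% interval 1.19 to 1.68, FDR = 2.53e-05), a fold of 2.71. In OVE918 it rose by 1.94 (SE 0.11, 95% interval 1.70 to 2.18, FDR = 1.86e-06), a fold of 3.84. Among all genes, 1.8% were higher DEGs in both lines. Leaving out any 1 library kept the value within 1.37 to 1.5 for OVE853 and within 1.89 to 2.01 for OVE918.

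Spry2, the paralogue on chromosome 14 from 106128766 to 106136446, had 28.0, 26.9 and 34.0 CPM in WT, 27.9, 26.8 and 30.5 CPM in OVE853 and 24.1, 31.1, 25.1 and 24.5 CPM in OVE918. All 3 groups overlapped. The log2 fold change was -0.06 in OVE853 (95% interval -0.34 to 0.22, FDR = 0.755) and -0.18 in OVE918 (95% interval -0.44 to 0.09, FDR = 0.335), so that neither interval reaches the change of Spry1. The OVE853 value turned to 0.048 without WT replicate 3 and to 0.022 with library totals in place of TMM.

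Spry4, another paralogue on chromosome 18, was scarce. It had 3.26, 2.54 and 7.19 CPM in WT, 5.38, 3.85 and 4.63 CPM in OVE853 and 3.21, 5.18, 3.86 and 2.86 CPM in OVE918. WT replicate 3 was the highest of the 10 libraries and WT replicate 2 the lowest. In the fit of 18058 genes its log2 fold change was 0.11 in OVE853 (95% interval -0.70 to 0.91, FDR = 0.859) and -0.17 in OVE918 (95% interval -0.92 to 0.59, FDR = 0.781). Without WT replicate 3 these values were 0.64 and 0.39, and the OVE853 value turned to -0.05, -0.16 or -0.03 without WT replicate 1, WT replicate 2 or OVE853 replicate 1. Both intervals are wide and span both directions, so that the direction of a change in this gene is not settled.

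Spred1, on chromosome 2 from 116951524 to 117018277, encodes a Sprouty-related protein that brings neurofibromin to the membrane and so lowers active RAS. It had 27.6, 25.3 and 37.9 CPM in WT, 41.1, 45.1 and 43.9 CPM in OVE853 and 33.9, 37.1, 36.3 and 27.9 CPM in OVE918. OVE853 lay above both other groups, and WT and OVE918 overlapped. Spred1 rose by 0.52 in OVE853 (SE 0.15, FDR = 0.0450) and had a log2 fold change of 0.16 in OVE918 (SE 0.14, FDR = 0.485). The OVE853 call was lost, at FDRs of 0.0623 to 0.123, without WT replicate 1, WT replicate 2, any 1 of the OVE853 libraries, OVE918 replicate 1 or OVE918 replicate 3, and with library totals (FDR = 0.0636) or only the groups compared (FDR = 0.0614). Without WT replicate 3, the highest WT library, it was 0.71 (FDR = 0.00505) in OVE853 and 0.35 (FDR = 0.0795) in OVE918.

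The 250 bases before the first start among the GENCODE vM39 Primary transcripts, the annotation's chosen forms, follow for 4 of these genes from GRCm39, 5′ to 3′ on the gene's strand. Other annotated transcripts of Spry2, Dusp6 and Etv5 start farther upstream, so that these 3 windows lie within the gene spans given here, outside every annotated exon of the gene. Spry1 and Spry2 are set against each other because these paralogues differed in response. Dusp6 and Etv5 are shown from among the genes that rose with Spry1 in OVE853. Fgfr1 and Spred1 also rose there, and their windows are not printed. Capitals mark exact words, read on either strand. The words are CCGGAA (a longer form of the GGAA core bound by ETS factors), TGACTCA (AP-1), TGACG (part of the cyclic AMP response element) and CAGAC (a SMAD-binding word). The GGAA core alone was not searched for.
Spry1, chr3:37693647-37693896, forward strand: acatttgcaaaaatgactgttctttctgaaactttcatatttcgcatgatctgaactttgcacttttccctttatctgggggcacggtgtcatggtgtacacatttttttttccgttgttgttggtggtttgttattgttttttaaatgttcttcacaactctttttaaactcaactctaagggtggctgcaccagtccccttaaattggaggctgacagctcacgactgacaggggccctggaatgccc
Spry2, chr14:106134793-106135042, reverse strand: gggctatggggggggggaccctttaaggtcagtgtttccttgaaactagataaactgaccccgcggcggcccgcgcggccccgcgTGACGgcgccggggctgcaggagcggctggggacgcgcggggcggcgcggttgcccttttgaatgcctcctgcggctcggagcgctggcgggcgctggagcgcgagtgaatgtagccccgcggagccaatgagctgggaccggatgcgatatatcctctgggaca
Dusp6, chr10:99098818-99099067, forward strand: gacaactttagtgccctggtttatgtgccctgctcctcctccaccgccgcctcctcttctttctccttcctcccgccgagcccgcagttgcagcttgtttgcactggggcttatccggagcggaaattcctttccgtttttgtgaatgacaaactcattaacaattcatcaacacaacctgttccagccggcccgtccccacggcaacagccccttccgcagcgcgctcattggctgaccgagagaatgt
Etv5, chr16:22258484-22258733, reverse strand: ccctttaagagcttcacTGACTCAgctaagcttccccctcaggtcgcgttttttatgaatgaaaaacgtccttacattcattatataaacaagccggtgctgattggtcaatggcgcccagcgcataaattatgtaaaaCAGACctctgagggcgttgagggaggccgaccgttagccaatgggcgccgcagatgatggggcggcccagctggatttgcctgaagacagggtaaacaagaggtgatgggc
None of the 4 words occurs in the windows of Spry1 and Dusp6, the genes that rose in both lines, so that these runs hold no capitals. Spry2 has the word TGACG starting 165 bases before its start, and Etv5 has TGACTCA starting 233 bases before its start and CAGAC starting 111 bases before it. Over 9417 such windows of protein-coding genes tested, CCGGAA or its reverse complement was found in 18.3%, TGACTCA in 2.76%, TGACG in 24.1% and CAGAC in 41.0%. Of the 9 members with a window, 0 held CCGGAA, 1 held TGACTCA, 1 held TGACG and 4 held CAGAC (Fgfr1, Fgfr2, Etv4 and Etv5). In RefSeq's promoter table for GRCm38.p6, whose windows of 300 bases run 50 bases past the start, 7 members had 9 windows, and CCGGAA occurred in 1 of them, that of Spry2, against 14.9% of 32851 windows, while the other words occurred in 0 of the 9, against 5.2%, 20.8% and 49.6%. Such a match is a run of letters and not a measured site.

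Dusp6, on chromosome 10 from 99086564 to 99103361, encodes a phosphatase specific for ERK. Its level was 21.7, 15.7 and 17.5 CPM in WT, 36.9, 32.5 and 40.2 CPM in OVE853 and 25.4, 31.7, 35.1 and 28.3 CPM in OVE918. None of the 7 transgenic libraries overlapped WT. Dusp6 rose by 0.999 on the log2 scale in OVE853 (SE 0.15, FDR = 0.00182), just under the DEG limit of 1, and by 0.72 in OVE918 (SE 0.14, FDR = 0.00544). In OVE853 it became a DEG when WT replicate 1 (1.14), OVE853 replicate 2 (1.08), OVE918 replicate 2 (1.0015) or OVE918 replicate 3 (1.0009) was left out. Its FDR was at most 0.0119 in OVE853 and at most 0.0263 in OVE918 in every such fit.

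Etv4, on chromosome 11 from 101660568 to 101676197, encodes an ETS factor of the PEA3 group and was scarce. It had 2.73, 3.12 and 6.03 CPM in WT, 7.01, 5.74 and 7.39 CPM in OVE853 and 5.53, 4.99, 6.35 and 7.10 CPM in OVE918. Only WT replicate 3 overlapped the transgenic libraries. The log2 fold change was 0.75 in OVE853 (SE 0.28, FDR = 0.0854; DESeq2 gave 0.0380) and 0.59 in OVE918 (SE 0.26, FDR = 0.144). Without WT replicate 3, Etv4 was a DEG in both lines, at 1.2 in OVE853 (FDR = 0.00469) and 1.03 in OVE918 (FDR = 0.00584). This library also held the retinal neuron and Müller glia markers given above, and their part in the result was not tested.

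Etv5, on chromosome 16 from 22200052 to 22259662, a close relative of Etv4 in the PEA3 group, was the most abundant of the feedback and target genes. Its level was 82.6, 73.7 and 61.4 CPM in WT, 111, 102 and 114 CPM in OVE853 and 84.0, 106, 100.2 and 80.7 CPM in OVE918. OVE853 lay above WT, and OVE918 replicate 4 lay below the highest WT library. Etv5 rose by 0.59 in OVE853 (SE 0.13, FDR = 0.0158) and had a log2 fold change of 0.35 in OVE918 (SE 0.13, FDR = 0.0739). The OVE853 call was lost without OVE853 replicate 1 (FDR = 0.0635) or OVE853 replicate 3 (FDR = 0.0695). In OVE918 it passed without WT replicate 1 (0.46, FDR = 0.0355) or OVE918 replicate 4 (0.42, FDR = 0.0413), with upper-quartile factors (FDR = 0.0470) and with DESeq2 (FDR = 0.0412).

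**Figure D3:**
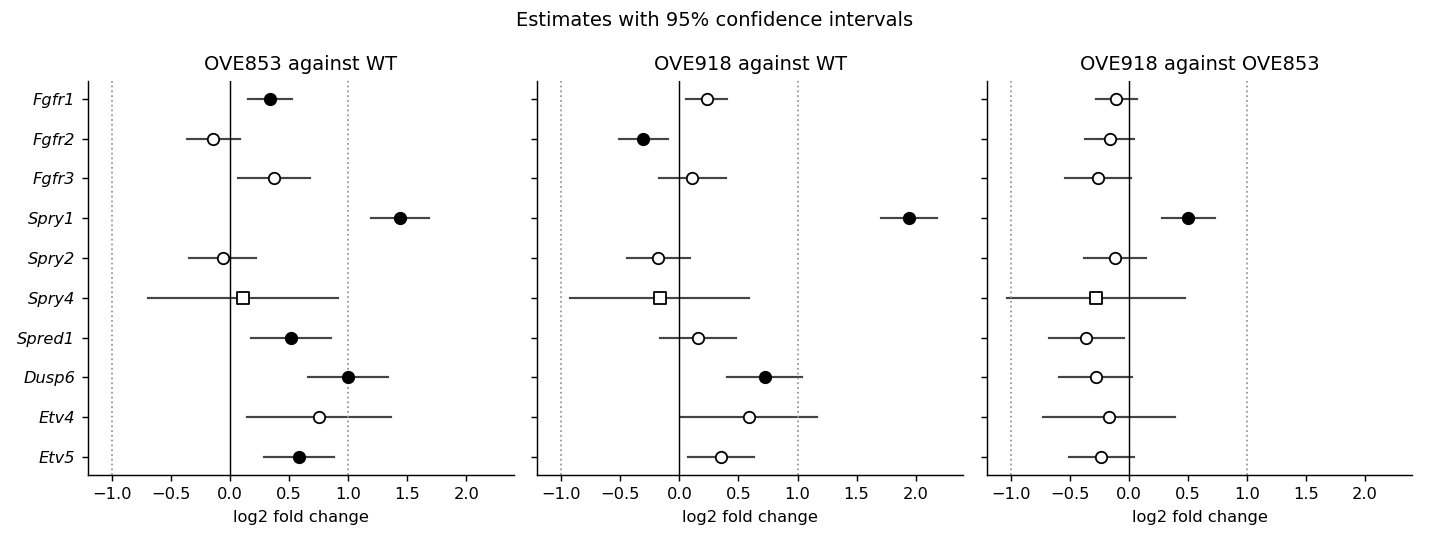
Log2 fold change (horizontal axis) of the 10 genes in each comparison, with 95% confidence intervals from edgeR. Filled points have an FDR of at most 0.05, squares mark Spry4 from the fit of 18058 genes, and dotted lines mark the DEG limit of 1 in each direction. Spry1 stands beyond the limit in both lines, at 1.44 and 1.94, and in the comparison of the lines it alone lies above 0.

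Counted by libraries that do not overlap, 6 of the 10 members were higher in OVE853 than in WT, beside 23.4% of all genes tested, and 0 were lower, beside 22%. In OVE918, 3 members (Fgfr1, Spry1 and Dusp6) were higher in every library than in every WT library, beside 12.3% of all genes, and Fgfr2 was lower, beside 14.9%. WT replicate 3 was the highest WT library for 5 of the 10 members (Spry1, Spry2, Spry4, Spred1 and Etv4), beside 40.4% of all genes tested, and the lowest for 4, beside 38.4%.

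A direct comparison of OVE918 with OVE853 asks whether the line with more Tgfb1 RNA differs in these genes. Tgfb1 was higher in OVE918 by 1.15 on the log2 scale (SE 0.11, FDR = 0.00388). Spry1 was higher by 0.51 (SE 0.10, 95% interval 0.28 to 0.73, FDR = 0.0458), a fold of 1.42, with every OVE918 library above every OVE853 library, as for 13.4% of all genes. This call was lost, at FDRs of 0.0606 to 0.186, without WT replicate 2, any 1 of the 3 OVE853 libraries, or OVE918 replicate 1, 3 or 4, at log2 fold changes of 0.44 to 0.57. It was also lost in the fit of 18058 genes (FDR = 0.0691) and with library totals in place of TMM (0.33, FDR = 0.154). The other 8 members tested had log2 fold changes below 0, as did 53.5% of all genes, and none passed. Spred1 was at -0.36 (SE 0.14, FDR = 0.178), Dusp6 at -0.28 (SE 0.14, FDR = 0.258), Fgfr3 at -0.26 (SE 0.13, FDR = 0.249) and Etv5 at -0.23 (SE 0.12, FDR = 0.286). Fgfr1, Fgfr2, Fgfr3 and Spred1 were lower in every OVE918 library than in every OVE853 library, beside 16.2% of all genes. With library totals in place of TMM the median of all genes in this comparison moved from -0.02 to -0.20, and the same number of members, 8 of 9, stayed below 0. OVE918 replicate 4 was the lowest OVE918 library for 6 of the 10 members, beside 35.3% of all genes. The sum of 9 lens fibre markers was 16864 to 30690 CPM in WT, 12977 to 22969 CPM in OVE853 and 19625 to 40533 CPM in OVE918, and the part of fibre cells in these differences was not tested.

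Around these genes, 78 other genes of the pathway were listed by role, and 47 of them were tested. In OVE853, 1 of the 47 was a DEG, beside 4.43% of all genes, and by FDR alone 4 rose and 3 fell, beside 8.1% and 7.69%. In OVE918, 2 were DEGs, beside 5.6%, and 6 rose and 4 fell by FDR alone, beside 8% and 11%. Between the lines 0 of the 47 were DEGs by edgeR, beside 0.487% of all genes. An unadjusted p under 0.05 was found for 6, and the share of all genes at that limit was not counted. The median log2 fold change was 0.06 in OVE853 and 0.05 in OVE918. Lrig1, a membrane protein that restrains receptor tyrosine kinases, was the 1 gene of the 47 that fell as a DEG in both lines. It had 223 to 247 CPM in WT, 86.7 to 97.3 CPM in OVE853 and 87.4 to 95.3 CPM in OVE918, a log2 fold change of -1.35 in each line (SE 0.09 and 0.08, FDR = 6.54e-06 and 2.3e-06). Ier3, an early response gene known as an ERK target, rose in OVE918 by 1.40 (SE 0.41, FDR = 0.0415), from 6.26, 2.54 and 10.6 CPM in WT to 12.1, 18.1, 14.8 and 23.4 CPM. In OVE853 its log2 fold change was 1.03 (SE 0.43, FDR = 0.126). The OVE918 call was lost, at FDRs of 0.0531 to 0.0910, without WT replicate 1 or 2, OVE853 replicate 1 or 3, or OVE918 replicate 2, 3 or 4, and without WT replicate 3 both lines passed, at 1.60 in OVE853 (FDR = 0.0267) and 1.97 in OVE918 (FDR = 0.00595).

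By role, the core kinases changed little. Of 12 genes from RAS to ERK, all tested, 0 were DEGs, and Mapk3, which encodes ERK1, fell in both lines. Mapk3 had 167, 171 and 189 CPM in WT, 125, 115 and 118 CPM in OVE853 and 133, 117, 130 and 152 CPM in OVE918, with log2 fold changes of -0.56 (FDR = 0.00652) and -0.40 (FDR = 0.0155). Of 11 adaptors tested, Grb2 fell in OVE853 by 0.30 on the log2 scale. In OVE918, Gab1 fell by 0.57 and Gab2 by 0.61, and Shc1 rose by 0.65. Shc1 had 119, 91.8 and 55.9 CPM in WT, lowest in replicate 3, and 127 to 151 CPM in OVE918. Among 11 other inhibitors tested, Spred2 rose by 0.46 (FDR = 0.0432) and Spred3 by 0.80 (FDR = 0.0459) in OVE853. Among 10 other targets tested, the log2 fold change was above 0 for 9 in each line, beside 48.7% of all genes in OVE853 and 52.1% in OVE918, with a median of 0.48 in OVE853 and 0.52 in OVE918. Of the 10, 2 rose by FDR in OVE853 and 3 in OVE918. Fos, counted among those above 0, spanned 31.4 to 382 CPM within WT and 57.6 to 987 CPM within OVE918. Myc, a listed target outside the main test, was at -0.57 in OVE853 (FDR = 0.376) and -1.24 in OVE918 (FDR = 0.0596) in the fit of 18058 genes. Phlda1 rose by 0.81 and 0.79 (FDR = 0.00529 and 0.00276), and Elk3, an ETS factor, rose by 0.54 and 0.59 (FDR = 0.0305 and 0.0124).

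**Figure D4:**
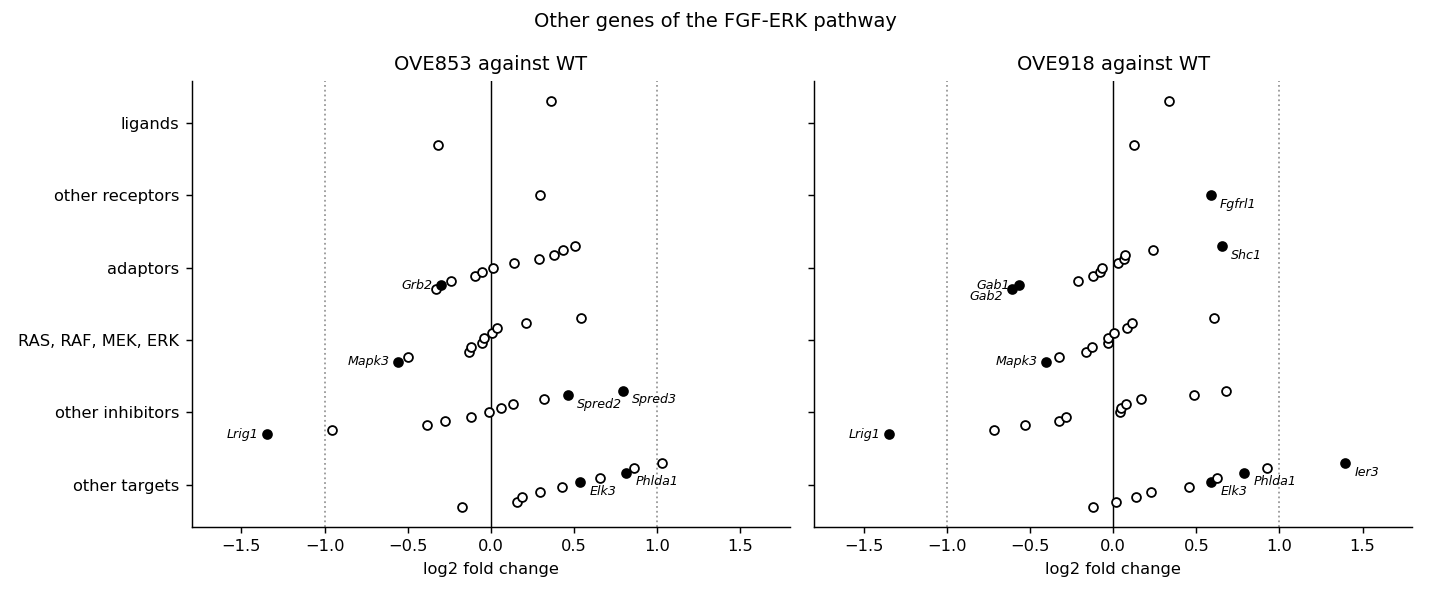
Log2 fold change against WT (horizontal axis) of 45 of the 47 other pathway genes tested, by role, in OVE853 and OVE918. Each point is a gene, filled and named where its FDR is at most 0.05, and dotted lines mark the DEG limit of 1. Lrig1 stands beyond the limit in both lines at -1.35 and Ier3 in OVE918 at 1.40.

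Of 22 genes of the FGF family, 8 had a group mean above 1 CPM, and 2 of these, Fgf11 and Fgf12, were in the main test and had FDRs of at least 0.0975 in both lines. The other 6 were read from the fit of 18058 genes, in which 6.89% of genes were DEGs in OVE853 and 8.79% in OVE918. Fgf1, a ligand of every FGF receptor, had 13.5, 10.9 and 11.9 CPM in WT, 8.76, 10.0 and 7.73 CPM in OVE853 and 7.02, 5.62, 4.87 and 2.95 CPM in OVE918. It fell in OVE918 (log2 fold change -1.22, SE 0.24, FDR = 0.00520) and was at -0.44 in OVE853 (SE 0.25, FDR = 0.243). Fgf2 had 1.19 to 7.47 CPM, with its highest value in WT replicate 3, and FDRs of 0.677 and 0.632. Fgf21, an endocrine member of the family that needs the co-receptor Klotho beta, had 0, 1 and 5 counts in the WT libraries, 29, 6 and 18 counts in OVE853 and 59, 58, 87 and 136 counts in OVE918. It rose in OVE918 (FDR = 0.000988) and in OVE853 (FDR = 0.0484), where the call was lost, at FDRs of 0.0531 to 0.154, without WT replicate 1 or 2, OVE853 replicate 1 or 3, or OVE918 replicate 1, 2 or 3. A fold over so few WT counts is not given. Klb, which encodes Klotho beta, had 0 to 0.175 CPM in the libraries.

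Fgf9, Fgf13 and Fgf14 were highest in WT replicate 3, the library with the retinal neuron markers. Fgf9 had 8.77 CPM there and 0.76 and 1.04 CPM in the other WT libraries. Fgf14 had 6.77 CPM there against 0.894 and 1.15 CPM. Fgf13, an intracellular member of the family that binds sodium channels, had 15.1 CPM there against 6.26 and 5.58 CPM, 2.69 to 3.60 CPM in OVE853 and 1.98 to 3.51 CPM in OVE918, and was a DEG in both lines (log2 fold changes -1.44 and -1.86, FDR = 0.0303 and 0.00416). Without WT replicate 3 Fgf13 was at -0.89 in OVE853 (FDR = 0.0684) and -1.29 in OVE918, and the OVE853 call was also lost without any 1 of the OVE853 libraries (FDRs of 0.0798 to 0.116). The part of retinal cells in these values was not tested.

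Among the 11093 other genes tested, Nampt had the profile most like that of Spry1 over the 10 libraries, by the root mean square difference of log2(CPM + 0.5) after centring each gene. That difference was 0.0818 for Nampt, 0.163 for Dgkg and 0.203 for Tmcc3, beside a median of 0.828 over all genes. Nampt, an enzyme of NAD synthesis, averaged 39.0 ± 0.630 CPM (SD, n = 3) in the WT libraries, 116 ± 12.2 CPM (SD, n = 3) in those of OVE853 and 151 ± 17.8 CPM (SD, n = 4) in those of OVE918. Dgkg, a diacylglycerol kinase, had 17.1 ± 1.65, 45.0 ± 3.05 and 55.7 ± 5.68 CPM in the same groups. Among the members themselves, Fgfr3 and Etv5 were closest, at 0.118, and Fgfr1 and Fgfr3 next, at 0.139, while Fgfr2 and Spry1 were farthest apart, at 0.934. All these profiles share the same libraries and their scaling. They were centred but not set to a common range, so that genes with small changes lie close together. Spry1 ranged over 2.10 on the log2 scale, against 0.729 for Fgfr3 and 0.889 for Etv5.

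**Figure D5:**
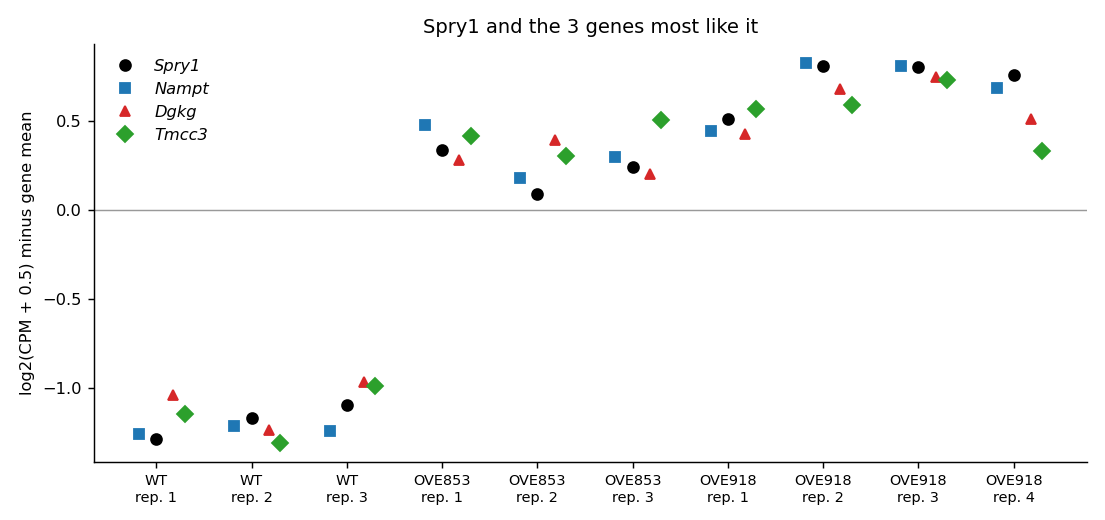
Centred log2(CPM + 0.5) (vertical axis) of Spry1, Nampt, Dgkg and Tmcc3 in each of the 10 libraries. All 4 genes are below 0 in the 3 WT libraries and above 0 in the 7 transgenic ones, and Nampt follows Spry1 most closely, with a root mean square difference of 0.0818.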

How the data were processed

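The authors removed adapters from paired reads (cutadapt 5.2), mapped the pairs to GRCm39 (STAR 2.7.11b), counted read pairs per RefSeq gene with featureCounts 2.0.8 in reverse-stranded mode, and deposited the counts without normalization for 50763 genes in 10 columns. Counting used strand and gene identity, so that receptor splice forms were not separated. Each column was tied to its sample by the description of that sample.

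Tests on these counts used edgeR 4.0.16 under R 4.3.3 (the submitters' notes name edgeR 4.6.3), with TMM factors, robust quasi-likelihood dispersions, 3 groups fitted together and 3 contrasts. A gene entered the test when 5 of 10 libraries reached 2 FPKM, with lengths taken by symbol from the exons of Primary transcripts in GENCODE vM39 (43252 genes, and 19 more through a RefSeq synonym). This left 7492 genes without a length. The RefSeq annotation used for counting was not used here. Standard errors were derived from the F statistic. Marker sums are sums of CPM.

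The members, the pathway and marker lists and the tests were chosen with earlier results of these data known. Named are all 10 members, Tgfb1, pathway genes that were DEGs, FGF genes with a group mean over 1 CPM and the 3 genes most like a called member. The other pathway genes named, most of which passed the FDR alone, were chosen after their values were seen, and 2 genes of the pathway list are not reported here. Alternatives comprised upper-quartile factors, library totals, DESeq2 1.42.0, other filters, fewer groups, no robust estimation, a replicate block, FDR alone and leaving out each library. The steps were tested on simulated data. Replicates differed far beyond counting noise, with a chi-square per degree of freedom of 20.0 to 213. Sequences were read from GRCm39 and RefSeq's promoter table.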

Additional observations from a re-analysis of the deposited data

Results flagged for a closer look

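Spry1 differed between the lines by the direct test of OVE918 against OVE853, by 0.51 on the log2 scale (FDR = 0.0458), and the fits in which this call was lost are given with the comparison above. Spry2 had 1 library apart in OVE918, because replicate 2 had 31.1 CPM and the other 3 libraries 24.1 to 25.1 CPM, a gap of 0.862 of the whole range of the group. Of 10 members examined in this way in OVE918, 1 was singled out, and about 1 in 20 groups is singled out when nothing is amiss.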

How the results depend on the processing

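Spry1 and Dusp6 kept their direction and their side of the FDR limit against WT in both lines under every alternative run. The count of members that were DEGs in OVE853, 1 as reported, was 2 with upper-quartile factors, library totals, filterByExpr or no filter, and without WT replicate 3 and OVE918 replicate 4 together, which was chosen after seeing the data. It was 5 by FDR alone and 1 to 2 on leaving out 1 library, with 2 without WT replicate 1 or 3, OVE853 replicate 2, or OVE918 replicate 2 or 3. The count in OVE918 was 3 by FDR alone and 1 to 2 on leaving out 1 library (2 without WT replicate 3), and between the lines it was 1 by FDR alone. For the other pathway genes the count in OVE853, 1 as reported, was 2 with DESeq2, 5 with filterByExpr or no filter, 7 by FDR alone, 3 without the pair of libraries and 1 to 3 on leaving out 1 (3 without WT replicate 3). In OVE918, with 2 as reported, it was 1 with library totals, 1 with only the groups compared, 1 with the replicate block, 8 with filterByExpr, 9 with no filter, 10 by FDR alone and 1 to 3 on leaving out 1 library, with 1 in the fits in which Ier3 was lost. The filters differ in which genes they test, 47, 61 or, with no filter, 74 of the 78. With filterByExpr, 6.89% of all genes were DEGs in OVE853 and 8.79% in OVE918. The shares of all genes for the main fit and by FDR alone are given above, and those under the other alternatives were not counted. Directions turned only for changes that did not pass. Spry2 in OVE853 was at 0.022 with library totals, 0.048 without the pair of libraries and -0.13 to 0.048 on leaving out 1. Spry4 was at -0.16 to 0.67 in OVE853 and at -0.42 to 0.50 in OVE918 without 1 or both of the libraries, and at 0.033 in OVE918 with the replicate block, and Fgfr3 in OVE918 was at -0.0215 to 0.19 on leaving out 1 library. Lrig1, which differed by -0.0014 between the lines, was there at 0.034 with upper-quartile factors, 0.011 with DESeq2, 0.012 with filterByExpr, 0.014 with no filter, 0.020 with only the groups compared, 0.016 with the replicate block, and -0.034 to 0.045 on leaving out 1 or both libraries. The cause of these turns was not tested. Among calls outside the members, that of Ier3 in OVE918 was also lost with library totals (FDR = 0.0687), no filter (FDR = 0.107) and only the groups compared (FDR = 0.0768), and DESeq2 called it in OVE853 (FDR = 0.0484). With only the groups compared Fgf13 (FDR = 0.0664) and Fgf21 (FDR = 0.0882) were lost in OVE853, and Fgf21 also with no filter (FDR = 0.0503).

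Same-numbered replicates did not deviate together (r of -0.323 to 0.0999 over 9 pairs, 0 over 0.1), so that the numbers are not taken to pair the pools. With the replicate block, Etv4 passed in OVE853 (0.81, FDR = 0.0477), and Fgfr2 in OVE918 (FDR = 0.0933), Spry1 between the lines (FDR = 0.139), Ier3 in OVE918 (FDR = 0.0814), Fgf13 in OVE853 (FDR = 0.0778) and Fgf21 in OVE853 (FDR = 0.0530) did not. The estimates of Fgf21 and Dusp2 rest on few counts.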

Other observations

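Of 16 other inhibitors of the ERK cascade listed, 4 were below the FPKM limit of the main test and entered the fit of 18058 genes, and those described here were named after their values were seen. Il17rd and Dusp2 were DEGs in OVE853, beside 6.89% of all genes in that fit, and Il17rd, Dusp2 and Dusp5 in OVE918, beside 8.79%. Il17rd, which encodes the FGF antagonist SEF, had 12.3, 17.2 and 23.3 CPM in WT, 5.08 to 5.79 CPM in OVE853 and 3.00 to 5.05 CPM in OVE918. It fell by 1.69 on the log2 scale in OVE853 (SE 0.24, FDR = 0.00147) and by 2.07 in OVE918 (SE 0.22, FDR = 0.000128), and it kept the call in both lines on leaving out any 1 library. The nuclear ERK phosphatase Dusp5 had 2.77, 1.19 and 4.31 CPM in WT, 2.82 to 4.14 CPM in OVE853 and 4.80 to 9.72 CPM in OVE918, where it rose by 1.48 (SE 0.40, FDR = 0.0300), and leaving out libraries was not run for it or for Dusp2. Dusp2, another nuclear phosphatase, had 2 to 3 counts per library in WT, 10 to 17 in OVE853 (FDR = 0.0256) and 9 to 25 in OVE918 (FDR = 0.00423), and no fold is given over so few WT counts. Dusp6, Dusp5 and Dusp2 rose in OVE918, whereas Lrig1 and Il17rd fell there. Of the 11 other inhibitors in the main test, 10 did not pass in OVE918, Dusp1, Dusp4 and Dusp7 among them. Spry3 did not pass in the fit of 18058 genes (FDR = 0.993).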
